A study of Mus musculus with 108 samples.

Results

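The libraries described here are 3 RNA libraries of macrophages sorted from mouse brain at day 10 after fractionated radiotherapy of 5 x 2 Gy, named 5x2_D10_BMDM1 to 5x2_D10_BMDM3 in the count table. They were chosen by those column names, and they are 3 of the 108 libraries of the series. They were compared with 10 libraries of macrophages from unirradiated mice, 5 labelled with a small and 5 with a large tumour, taking the mean of both stages. All mice were athymic nude mice of the strain Balb/C (CAnN.Cg-Foxn1nu/Crl) with brain metastases of a lung tumour, so all groups lacked a thymus and all carried a tumour. The labels call the day 10 cells BMDM with the tumour stage not stratified and the radiotherapy 5x2 Gy, D10, and they give the unirradiated cells as BMDM (bone marrow-derived macrophage) with the radiotherapy none. Other macrophage groups entered the fit or a direct comparison: 4 libraries at day 3 and 4 at day 5 after 5 x 2 Gy, and 3 at day 3 after 1 x 10 Gy, all of them also without a stage. The labels do not give the age or sex of the mice, the event from which days were counted, the sorting gate, or whether a library holds cells of 1 mouse or of several. P-values therefore measure only the spread between these libraries, which may be technical.

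Bone marrow-derived macrophages of a brain tumour arise from blood monocytes that enter the tissue and take up functions of phagocytosis, antigen presentation, matrix remodelling and cytokine release beside the resident microglia. Ionizing radiation breaks DNA and activates p53, a transcription factor whose targets arrest the cell cycle, repair DNA or start cell death. Irradiated tumours are also known for interferon signalling started by DNA and RNA sensors, and for the entry of further monocytes and granulocytes from the blood.

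Total counts ranged from 10259581 to 11692834 in the day 10 libraries and from 7059127 to 15378802 in the unirradiated libraries. The macrophage receptor Csf1r was at 3819, 3288 and 3634 CPM (counts scaled to a common library size with TMM factors) in day 10 libraries 1, 2 and 3, and at 1709 to 6086 CPM (median 2705 CPM) in the unirradiated libraries. The integrin Itga4, which marks blood-derived macrophages in brain tumours, was at 166, 221 and 152 CPM at day 10 and 64.2 to 332 CPM without irradiation. The microglial receptor P2ry12 was not absent, at 287, 209 and 239.7 CPM at day 10 and 91.8 to 635 CPM without irradiation, against 1365, 1235 and 1215 CPM in the 3 day 10 libraries sorted as microglia. In bulk RNA, a different number of cells of a type and a different amount of RNA per cell cannot be told apart. Day 10 library 2 stood apart from the other day 10 libraries in genes of granulocytes, monocytes and inflammation, and results that rest on it are given with and without it. In other groups 4 libraries also stood apart, namely small replicate 4, large replicate 5 and the libraries numbered 4 at day 3 and day 5 after 5 x 2 Gy. In these 0.969% to 1.09% of the counts came from ribosomal protein genes, against 0.334% to 0.681% in the other 20 macrophage libraries, and S100a9 was at most 0.157 CPM in them although its partner S100a8 was at 4.66 to 10 CPM. Both the high ribosomal protein share and the low S100a9 were used to set these libraries apart. No day 10 library had both. Day 10 library 3 had S100a9 at 0.475 CPM and S100a8 at 2.57 CPM, with a ribosomal protein share of 0.449%. Large replicate 2 had 31357 genes with at least 1 count, against 13508 to 23070 in the other macrophage libraries.

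The first question was which genes differed between macrophages at day 10 and unirradiated macrophages. No gene passed: 0 of 15874 genes tested (0%) reached an adjusted p of 0.05 by edgeR's quasi-likelihood test with Benjamini-Hochberg adjustment. The smallest adjusted p was 0.177, for the granule protein gene Lcn2. At an unadjusted p under 0.05 edgeR had 545 genes higher at day 10 (3.43% of those tested) and 454 lower (2.86%). DESeq2 called 6 genes (0.0378%), and limma voom with sample quality weights called 181 genes higher (1.14%) and 89 lower (0.561%). All 3 day 10 libraries lay above all 10 unirradiated libraries for 185 genes (1.17%) and below them for 77 genes (0.485%). Of the 185 genes 82 were also called by voom, and of the 77 genes 27. The median log2 fold change over all genes tested was -0.06, with 7090 genes positive (44.7%) and 8784 negative. Counts of list members given below are to be set beside these shares of all genes tested. The day 10 libraries were close to each other: over the 9197 genes that averaged at least 10 CPM, the median SD of log2 CPM was 0.216 at day 10, against 0.439 in the small and 0.426 in the large unirradiated group. The genes described next were chosen after their values were seen, as those with no overlap between the groups, at least 10 CPM in the higher group and small p-values, beside members of gene lists. None of them passed edgeR's adjusted threshold, and the adjusted p given with each is edgeR's unless voom or DESeq2 is named.

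**Figure D1:**
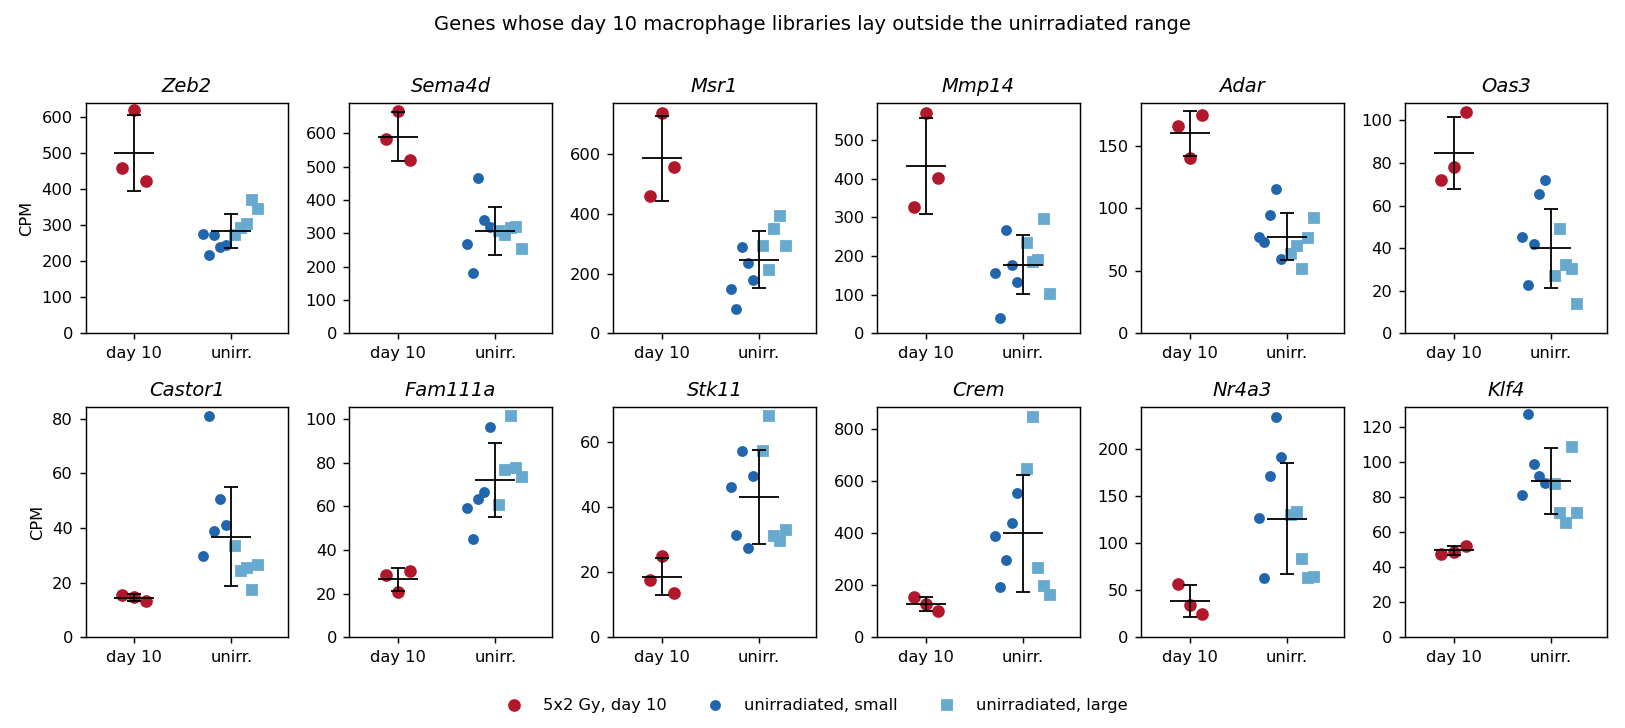
CPM of 12 genes in each macrophage library, day 10 on the left and unirradiated on the right (circles small, squares large); horizontal lines are means and bars are SD. In each panel the 3 day 10 points lie outside the range of the 10 unirradiated points, above it in the top row and below it in the bottom row.

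Among the genes higher at day 10 were a transcription factor, surface receptors and guidance molecules of macrophages. Zeb2, a transcription factor that keeps the identity of tissue macrophages (chr2:44983632-45117395, minus strand, GRCm38), was at 458, 618 and 422 CPM in day 10 libraries 1, 2 and 3, against 215 to 370.4 CPM (median 275 CPM) in the unirradiated libraries. The lowest day 10 library was above the highest unirradiated one. Its log2 fold change was 0.83 ± 0.16 (SE; 95% interval 0.49 to 1.17), with an adjusted p of 0.23 by edgeR, 0.00837 by voom and 0.00945 by DESeq2. Sema4d, a membrane-bound semaphorin that signals through plexins (chr13:51685529-51793747, minus strand), was at 582, 667 and 519.6 CPM at day 10 and 179 to 467 CPM (median 312 CPM) without irradiation. The groups did not overlap, the log2 fold change was 0.94 ± 0.19, and the adjusted p was 0.23 by edgeR, 0.00144 by voom and 0.0322 by DESeq2. Zeb2 kept a log2 fold change of 0.67 without day 10 library 2, and Sema4d 0.87.

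The scavenger receptor Msr1, which takes up modified lipoproteins (chr8:39581685-39642673, minus strand), was at 458, 738 and 558 CPM at day 10 and 82.1 to 393 CPM (median 261 CPM) without irradiation. Its log2 fold change of 1.29 ± 0.31 had an adjusted p of 0.407 by edgeR and 0.0246 by voom, and was 1.11 without day 10 library 2. The integrin chain Itgav, a partner in vitronectin and TGF-beta binding, was at 206, 150.5 and 159.5 CPM at day 10 and 36.4 to 134 CPM (median 83.9 CPM) without irradiation, again with no overlap (log2 fold change 1.04 ± 0.28). The syndecan Sdc3, a heparan sulfate proteoglycan, was at 972, 732 and 791 CPM, against 113 to 588 CPM, and the RANK receptor gene Tnfrsf11a was at 278, 226 and 258 CPM, against 91.4 to 224 CPM. The sialic acid receptor Siglec1 overlapped, at 275, 149.9 and 225 CPM at day 10 and 30.7 to 228 CPM (median 77.9 CPM) without irradiation. Of 26 scavenger and phagocytic receptors tested, 0 passed edgeR, and 5 had an unadjusted p under 0.05 on the higher side, beside 3.43% of all genes. Voom called 4 of the 26 higher (Msr1, Siglec1, Itgav and Itgb5), beside 1.14% of all genes. Of the 26, 16 had a positive log2 fold change, with a median of 0.24 (0.06 to 0.50 over 28 settings) beside -0.06 over all genes.

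The complement component C3, cleaved in opsonization, was at 151, 379 and 143 CPM at day 10 and 24.6 to 125 CPM (median 84.7 CPM) without irradiation. Library 2 was the highest of the 13, and the log2 fold change of 1.45 ± 0.35 was 0.86 without it, a change of more than 1.5 times on this scale. The hexokinase gene Hk1, which starts glycolysis, was at 77.9, 122 and 76.0 CPM at day 10 and 14.2 to 66.9 CPM (median 37.8 CPM) without irradiation (log2 fold change 1.25 ± 0.30). The ion channel Piezo1, opened by membrane stretch, was at 68.9, 73.9 and 39.7 CPM at day 10 and 18.7 to 39.0 CPM without irradiation, with library 3 just above the highest unirradiated value. The endosomal RNA sensor Tlr8 was at 102, 132 and 109.6 CPM, against 17.2 to 81.1 CPM, and the Wnt receptor Fzd7 at 33.9, 32.9 and 40.1 CPM, against 2.17 to 21.2 CPM. The nuclear protein Daxx, the non-muscle myosin Myh9 and the actin regulator Coro1c also lay above the unirradiated range in all 3 day 10 libraries, with log2 fold changes of 0.74 ± 0.18, 0.82 ± 0.21 and 0.72 ± 0.19.

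Among the genes with no overlap, picked after their values were seen, were proteases that shed membrane proteins or cut matrix. Mmp14, a membrane-bound metalloproteinase that degrades collagen and activates other metalloproteinases (chr14:54431612-54445364, plus strand), was at 328, 569 and 401 CPM at day 10 and 38.3 to 296 CPM (median 180.4 CPM) without irradiation. No unirradiated library reached the lowest day 10 value; the log2 fold change was 1.30 ± 0.33, with an adjusted p of 0.54 by edgeR and 0.0218 by voom. The sheddases Adam9, Adam10 and Adam17, which release growth factors and cytokine receptors from the cell surface, had no overlap either. Adam10 was at 276, 357 and 335 CPM at day 10 and 103 to 227 CPM without irradiation, and Adam17 at 286, 383 and 346 CPM and 112 to 258 CPM. The log2 fold changes of Adam10, Adam17 and Adam9 were 0.85 ± 0.23, 0.72 ± 0.22 and 0.77 ± 0.23. By contrast the growth factor gene Hbegf, whose product Adam17 sheds, was at 3.18, 1.88 and 2.09 CPM at day 10 and 3.26 to 22.1 CPM (median 14 CPM) without irradiation, with no overlap and a log2 fold change of -2.41 ± 0.73. Of 24 matrix and matrix remodelling genes tested, 0 passed edgeR, 7 had an unadjusted p under 0.05 on the higher and 1 on the lower side, and 15 were positive and 9 negative. Voom called Mmp14 higher and Plaur, the urokinase receptor, lower, beside 1.14% and 0.561% of all genes. The median of the list was 0.42, and 0.06 without day 10 library 2.

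Genes of RNA sensing and the interferon response were mostly higher at day 10, by small amounts. Adar, an RNA-editing enzyme that limits the sensing of double-stranded RNA (chr3:89715022-89753446, plus strand), was at 166, 140.1 and 175 CPM at day 10 and 51.7 to 116 CPM (median 74.6 CPM) without irradiation. The groups did not overlap, the log2 fold change was 1.06 ± 0.25 (95% interval 0.55 to 1.56), and the adjusted p was 0.363 by edgeR and 0.00298 by voom. Ddx58, which encodes the RNA sensor RIG-I, was at 159, 175 and 198 CPM at day 10 and 62.9 to 155 CPM (median 92.5 CPM) without irradiation (log2 fold change 0.82 ± 0.20). Oas3, an oligoadenylate synthetase that activates RNase L, was at 72.2, 78.0 and 104 CPM at day 10 and 13.8 to 71.8 CPM (median 37.0 CPM) without irradiation (log2 fold change 1.13 ± 0.29). In both genes all 3 day 10 libraries lay above the unirradiated range, in Oas3 with library 1 only just above the highest unirradiated library. Stat2, the transcription factor of type I interferon signalling, was at 181, 204 and 173 CPM at day 10 and 98.4 to 165 CPM (median 138 CPM) without irradiation, and the receptor subunit Ifnar2 at 417, 410.2 and 434 CPM, against 243 to 383 CPM. Stat2 had a log2 fold change of 0.48 ± 0.14, and without irradiation its means were 158 ± 5.14 CPM in small and 113 ± 11.2 CPM in large tumours (SD, n = 5 each).

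Of 32 interferon-stimulated genes tested, 0 passed edgeR's adjusted threshold, and 9 had an unadjusted p under 0.05, all higher. Voom called 5 of them higher (Oas3, Oasl2, Stat2, Ddx58 and Dhx58), and 4 (Oas3, Stat2, Ddx58 and Dhx58) had no overlap. Over all genes tested, voom called 1.14% higher, and 1.17% had no overlap on the higher side. The median log2 fold change of the 32 genes was 0.47, beside -0.06 over all genes tested. Of the 32, 27 were positive, beside 44.7% of all genes tested. The median was 0.58 without day 10 library 2 and 0.51 without the 4 libraries with a high ribosomal protein share. It was 0.32 without day 10 library 3, and it ranged from 0.31 to 0.67 over 28 settings. Summed over the list, day 10 libraries 1, 2 and 3 were at 5267, 4864 and 7532 CPM, against 2537 to 6297 CPM without irradiation. Only library 3 lay above that range. Members other than Oas3, Stat2, Ddx58 and Dhx58 overlapped between the groups. Ifit3 was at 288, 256 and 442 CPM at day 10 and 119 to 336 CPM (median 191 CPM) without irradiation, Isg15 at 97.3, 98.7 and 176 CPM and 56.2 to 159 CPM, and Cxcl10 at 40.6, 39.4 and 39.1 CPM and 14.8 to 84.7 CPM. The interferon-gamma-linked GTPases and guanylate-binding proteins had a median of 0.30 over 17 genes, with 0 past edgeR's threshold, 3 at an unadjusted p under 0.05 and 0 called by voom or DESeq2.

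**Figure D2:**
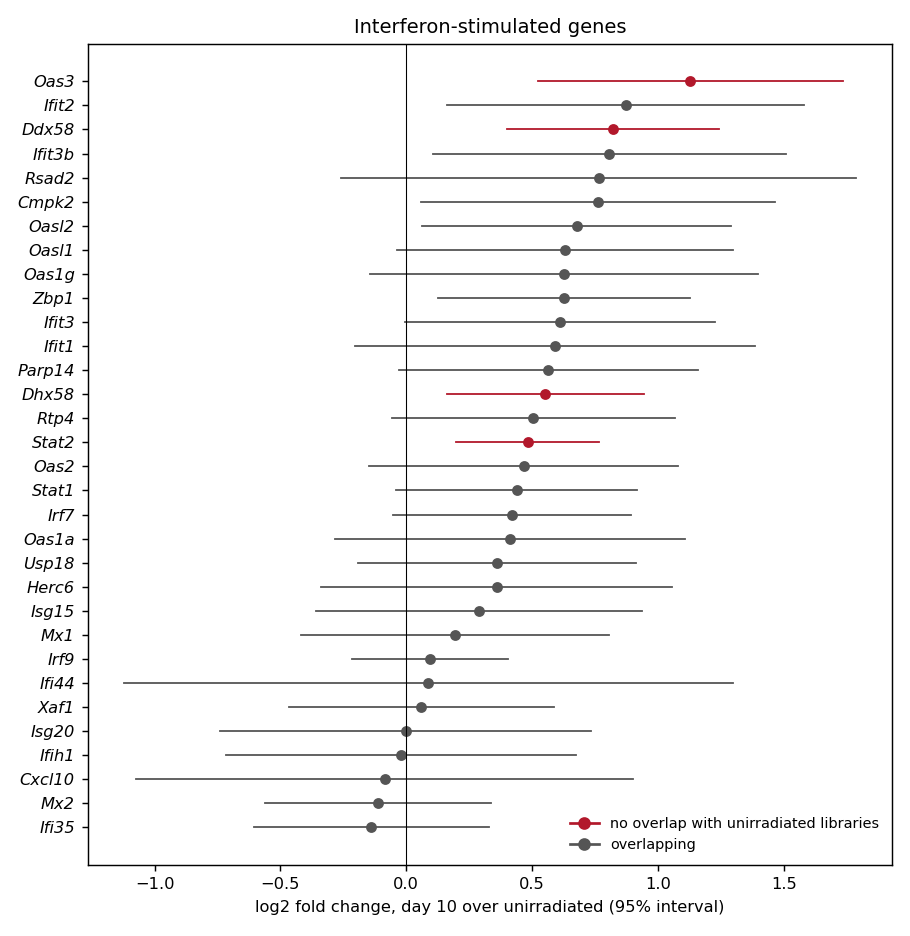
Log2 fold change of 32 interferon-stimulated genes, day 10 over unirradiated, with 95% intervals from edgeR's fit; points right of 0 are higher at day 10. The 4 genes in red had all 3 day 10 libraries above all 10 unirradiated libraries, and 27 of the 32 points lie right of 0.

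The promoters of interferon-stimulated genes hold binding sites of interferon regulatory factors and of the complex that contains Stat2. A motif of GAAA repeated after any 2 bases, searched on both strands from 250 bases before to 50 bases after each RefSeq start on GRCm38.p6, was in 1079 of 27025 genes (3.99%). Among the interferon-stimulated genes of the list 23 were in the promoter table, and 12 of these (52.2%) held it. To show where the motif lies in genes with and without overlap between the groups, the 250 bases before the start of Oas3 (chr5:120777660-120777909, minus strand), Stat2 (chr10:128270248-128270497, plus strand) and Ifit3 (chr19:34583279-34583528, plus strand) are printed on the gene's strand, with the motif in capitals.
Oas3: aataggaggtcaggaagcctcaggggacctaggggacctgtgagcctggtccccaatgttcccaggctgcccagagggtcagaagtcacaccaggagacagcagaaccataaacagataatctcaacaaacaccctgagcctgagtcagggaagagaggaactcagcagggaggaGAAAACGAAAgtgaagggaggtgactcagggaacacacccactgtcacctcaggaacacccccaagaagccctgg
Stat2: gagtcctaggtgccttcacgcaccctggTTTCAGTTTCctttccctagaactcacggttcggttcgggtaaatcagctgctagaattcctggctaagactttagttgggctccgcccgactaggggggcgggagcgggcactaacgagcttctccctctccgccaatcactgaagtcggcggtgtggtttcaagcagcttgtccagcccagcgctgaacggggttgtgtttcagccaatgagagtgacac
Ifit3: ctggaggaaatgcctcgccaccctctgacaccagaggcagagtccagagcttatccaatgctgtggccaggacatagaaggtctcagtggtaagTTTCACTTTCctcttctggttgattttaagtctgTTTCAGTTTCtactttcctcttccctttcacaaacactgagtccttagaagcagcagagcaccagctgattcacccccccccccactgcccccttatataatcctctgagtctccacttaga
Oas3 held 1 match on the strand of the gene, Stat2 held 1 match on the other strand, and Ifit3 held 2 on the other strand, although its libraries overlapped. Ddx58 held a match that starts 2 bases after its start. No promoter of Adar, Zeb2 or Sema4d in the table held these letters in this window. A match is not a measured site, and the sequence is of the reference strain C57BL/6J, not of the mice used.

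Fewer genes lay below the unirradiated range in all 3 day 10 libraries than above it (77 and 185). Several of the lower genes act in the response to stimulation, stress or nutrients. Fam111a, a protease of the replication fork (chr19:12545740-12589768, plus strand), was at 28.5, 20.5 and 30.6 CPM at day 10 and 45.2 to 102 CPM (median 70.1 CPM) without irradiation. The highest day 10 library was below the lowest unirradiated one; the log2 fold change was -1.44 ± 0.38 (95% interval -2.21 to -0.66), with an adjusted p of 0.542 by edgeR and 0.0279 by voom. Castor1, a sensor of arginine upstream of mTORC1, was at 15.5, 14.6 and 13.1 CPM at day 10 and 17.4 to 81.0 CPM (median 31.7 CPM) without irradiation. Its log2 fold change of -1.28 ± 0.31 had an adjusted p of 0.407 by edgeR, 0.029 by voom and 0.0325 by DESeq2. Stk11, the kinase LKB1 that activates AMPK, was at 17.5, 24.9 and 13.6 CPM at day 10 and 27.5 to 68.1 CPM (median 39.5 CPM) without irradiation (log2 fold change -1.21 ± 0.32). The other 3 genes called by DESeq2 were the gene models Gm14642, C920009B18Rik and CT010467.1. They averaged at most 0.153 CPM at day 10, and 1.49, 6.75 and 286 CPM over the 10 unirradiated libraries, and voom called none of them.

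The genes with no overlap on the lower side included 3 transcription factors that cells induce quickly on stimulation. Crem, a cyclic AMP-responsive repressor, was at 156, 128 and 100.2 CPM at day 10 and 163 to 847 CPM (median 343 CPM) without irradiation (log2 fold change -1.64 ± 0.46). The nuclear receptor Nr4a3 was at 56.9, 34.4 and 24.3 CPM at day 10 and 63.2 to 234 CPM (median 128 CPM) without irradiation (log2 fold change -1.66 ± 0.51), and Klf4 was at 47.6, 48.8 and 52.3 CPM and 65.0 to 127 CPM (median 87.8 CPM). In all 3 genes the groups did not overlap. Of 23 immediate early genes tested, 0 passed edgeR, 5 had an unadjusted p under 0.05 on the lower side, and 1, Klf4, was called lower by voom; 19 were negative and 4 positive, with a median of -0.43. The NF-kB inhibitor Nfkbia, itself induced by NF-kB, was at 671, 1046 and 639.6 CPM at day 10 and 776 to 2643 CPM (median 1136 CPM) without irradiation, with overlap and voom's adjusted p of 0.0279. Inflammatory and NF-kB genes had a median of -0.29 over 26 genes, 18 of them negative. Single libraries moved this median by over 1.5 times: it was -0.13 without day 10 library 1, -0.52 without library 2 and -0.03 without library 3. The stress factors Atf4 and Herpud1, of the integrated stress response and of protein quality control in the endoplasmic reticulum, were at 193, 255 and 215 CPM at day 10 and 278 to 602 CPM without irradiation, and at 317, 324 and 243 CPM and 338 to 770.1 CPM. Neither gene overlapped between the groups, and of the 20 genes of the unfolded protein response 10 were positive and 10 negative, with a median of 0.01.

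Several of the largest positive fold changes at day 10 rested on library 2. Lcn2, a granule protein of neutrophils that inflamed tissue also makes, was at 0.965, 87.4 and 0.380 CPM in day 10 libraries 1, 2 and 3, against 0.105 to 2.55 CPM (median 0.585 CPM) in the unirradiated libraries. Libraries 1 and 3 lay within the unirradiated range, and the log2 fold change of 5.22 ± 0.94 with its adjusted p of 0.177 by edgeR was -0.19 without library 2. The formyl peptide receptor Fpr2 was at 14.4, 184 and 15.4 CPM, against 3.62 to 26.0 CPM, the proteoglycan Vcan, made by monocytes, at 14, 242 and 3.42 CPM, against 0.235 to 36.3 CPM, and the chemokine Cxcl3 at 2.22, 124 and 2.0 CPM, against 0 to 9.64 CPM. Genes of macrophage inflammation and metabolism showed the same pattern. The mitochondrial superoxide dismutase Sod2 was at 103, 649.8 and 116 CPM at day 10 and 67.2 to 180.2 CPM (median 117 CPM) without irradiation, the cystine carrier Slc7a11 at 28.9, 516 and 50.1 CPM and 14.7 to 113 CPM, and the matrix protein Thbs1 at 272, 1671 and 295 CPM and 3.67 to 348 CPM. Arginase, Arg1, a marker of alternatively activated and of tumour macrophages, was at 117, 529.6 and 60.8 CPM at day 10 and 1.40 to 110.4 CPM (median 27.3 CPM) without irradiation. It rested on library 2 only in part. Library 1 was also above the unirradiated range, and the log2 fold change of 2.61 was 1.24 without library 2. Single libraries of other irradiated groups were as high as library 2, with Arg1 at 896 CPM in day 3 library 4 and 770.0 CPM in day 5 library 3.

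Marker lists placed library 2 apart in the same way. Of 13 neutrophil genes, none was at 0 in all 3 day 10 libraries, and their summed level was 522, 728 and 432 CPM in day 10 libraries 1, 2 and 3, against 134 to 569 CPM without irradiation. The defining gene Ly6g was at or below 0.179 CPM at day 10. Classical monocyte markers summed to 3729.8, 7068 and 3332 CPM, against 934 to 4115 CPM, and haemoglobin and other erythroid genes to 28.7, 76.1 and 0.190 CPM, against 0.0945 to 17.1 CPM, so library 1 was above the unirradiated range in erythroid genes too. The 9 neutrophil genes tested had a median log2 fold change of 1.70, and -0.33 without library 2; for the 11 classical monocyte genes these were 0.57 and -0.46. The library sorted as microglia with the same number also stood out: Lcn2 was at 2.55, 50.1 and 0.426 CPM and S100a8 at 22.7, 78.2 and 10.9 CPM in day 10 microglia libraries 1, 2 and 3. The labels do not say whether equal numbers are the same mouse. Without library 2 edgeR again called 0 genes, and voom called 41 in place of 270. The part of granulocyte and monocyte RNA in the genes that were higher in library 2 was not tested.

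**Figure D3:**
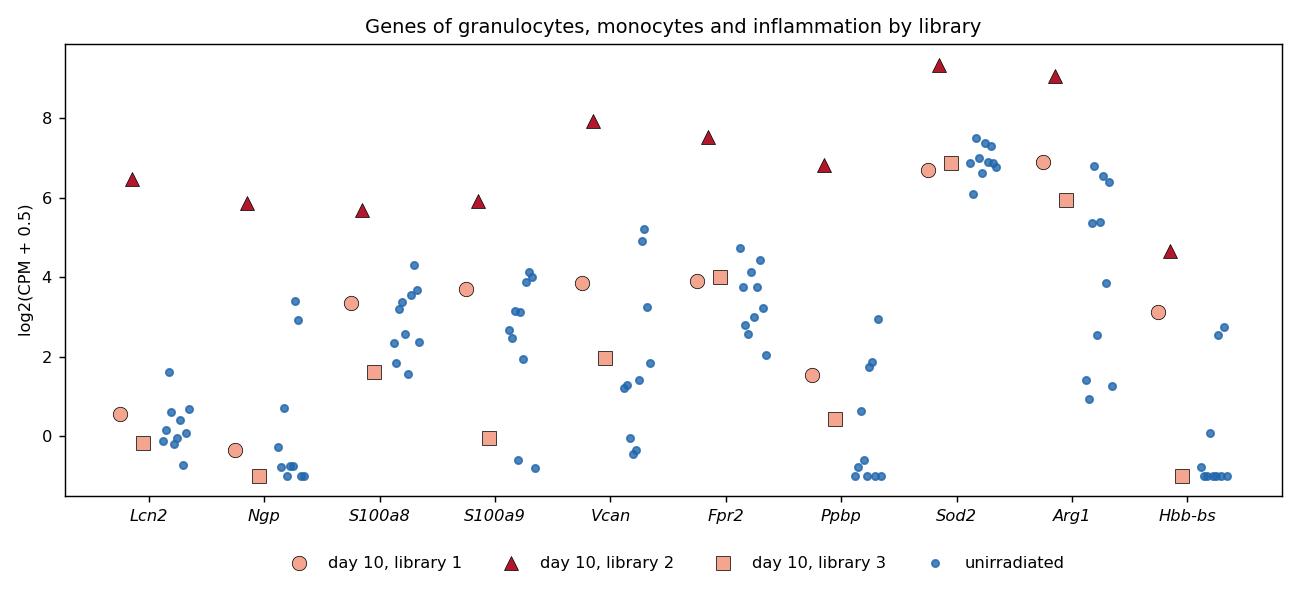
Log2(CPM + 0.5) of 10 genes of granulocytes, platelets, monocytes, red cells and inflammation in each day 10 library (left of each tick) and in the 10 unirradiated libraries (right). Day 10 library 2, the dark triangle, is above every other point for all 10 genes, while libraries 1 and 3 lie among or near the unirradiated points.

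Genes of antigen presentation and of dendritic cells were mostly lower at day 10, none of them past a threshold of edgeR. Of 15 genes of MHC class II presentation tested, 0 passed edgeR, 2 had an unadjusted p under 0.05 on the lower side, voom called 1 lower (H2-Oa), and 13 were negative, with a median of -0.58. H2-Aa, the class II alpha chain, was at 98.1, 88.1 and 90.6 CPM at day 10 and 46.6 to 313 CPM (median 122 CPM) without irradiation, with a log2 fold change of -0.65 ± 0.47. H2-Oa, which modulates peptide loading in B cells and dendritic cells, was at 29.7, 19.2 and 28.5 CPM at day 10 and 29.6 to 94.3 CPM (median 62.0 CPM) without irradiation. Day 10 libraries 2 and 3 were below the lowest unirradiated library, and library 1 was just above it. Of 12 markers of conventional dendritic cells 11 were negative (median -0.58, and -0.97 to -0.07 over 28 settings). All 10 markers of mature migratory dendritic cells tested were negative (median -0.82, and -1.37 to -0.45 over 28 settings). In each list 0 passed edgeR and 0 were called by voom, with 1 and 0 genes at an unadjusted p under 0.05. The conventional markers summed to 1544, 1035 and 953 CPM at day 10, inside the 664 to 3564 CPM of the unirradiated libraries. Ccr7, which guides mature dendritic cells to lymph nodes, was at 509.9, 527 and 417 CPM at day 10 and 103 to 1689 CPM (median 1165 CPM) without irradiation. The mature dendritic cell markers summed to 959, 1062 and 784 CPM at day 10 and 327 to 3196 CPM without irradiation, so the day 10 libraries lay inside a wide unirradiated range. The spread was wider in the large stage: Ccr7 averaged 1243 ± 214 CPM in small and 735 ± 778 CPM in large tumours (SD, n = 5 each). The mean log2(CPM + 0.5) of the 10 mature markers tested was 5.41, 5.36 and 5.21 in day 10 libraries 1, 2 and 3. It was 5.92 to 7.21 in the small and 3.68 to 6.60 in the large libraries. The day 10 libraries thus lay below all small libraries but inside the range of the large ones.

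Other lists had medians away from that of all genes with few or no members called. Lysosomal genes were positive for 20 of 25 tested (median 0.19; 0.09 without day 10 library 3, and 0.01 to 0.37 over 28 settings), led by the protease Ctsc at 3519, 3348 and 3439 CPM at day 10 and 1603 to 3256 CPM (median 2535 CPM) without irradiation. Genes of hypoxia and glycolysis had a median of 0.45 over 24, which was 0.17 without day 10 library 2; the glycolytic enzyme Pkm was at 823, 1583 and 877 CPM at day 10 and 443 to 977 CPM without irradiation. Cytosolic ribosomal proteins were negative for 27 of 28 (median -0.64), and the median was -0.32 without the 4 libraries with a high ribosomal protein share, 2 of which were unirradiated. Mitosis genes had a median of 0.30 over 25, with 0 called by edgeR or voom and 0 at an unadjusted p under 0.05. This median was 0.54 without day 10 library 2, 0.19 without library 3 and 0.92 by voom, and it ranged from -0.29 to 1.2 over 28 settings, so its direction was not the same in all of them. The kinesin Kif20a, with a log2 fold change of 1.14 ± 0.96, was the one mitosis gene with no overlap. The proliferation marker Mki67 was at 42.8, 47.2 and 23.1 CPM at day 10 and 5.86 to 60.0 CPM (median 24.8 CPM) without irradiation, and Pcna, the clamp of DNA polymerase, was at 57.9, 62.0 and 64.2 CPM, against 71.5 to 124 CPM, the one replication gene of 25 with no overlap. Disease-associated macrophage genes had a median of 0.00 over 24, cholesterol synthesis -0.03 over 22 and oxidative phosphorylation -0.07 over 25, all near the median of all genes. Apoe, Mrc1 and Ccr2 overlapped between the groups, with log2 fold changes of -0.04 ± 0.18, -0.13 ± 0.59 and 0.64 ± 0.36.

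**Figure D4:**
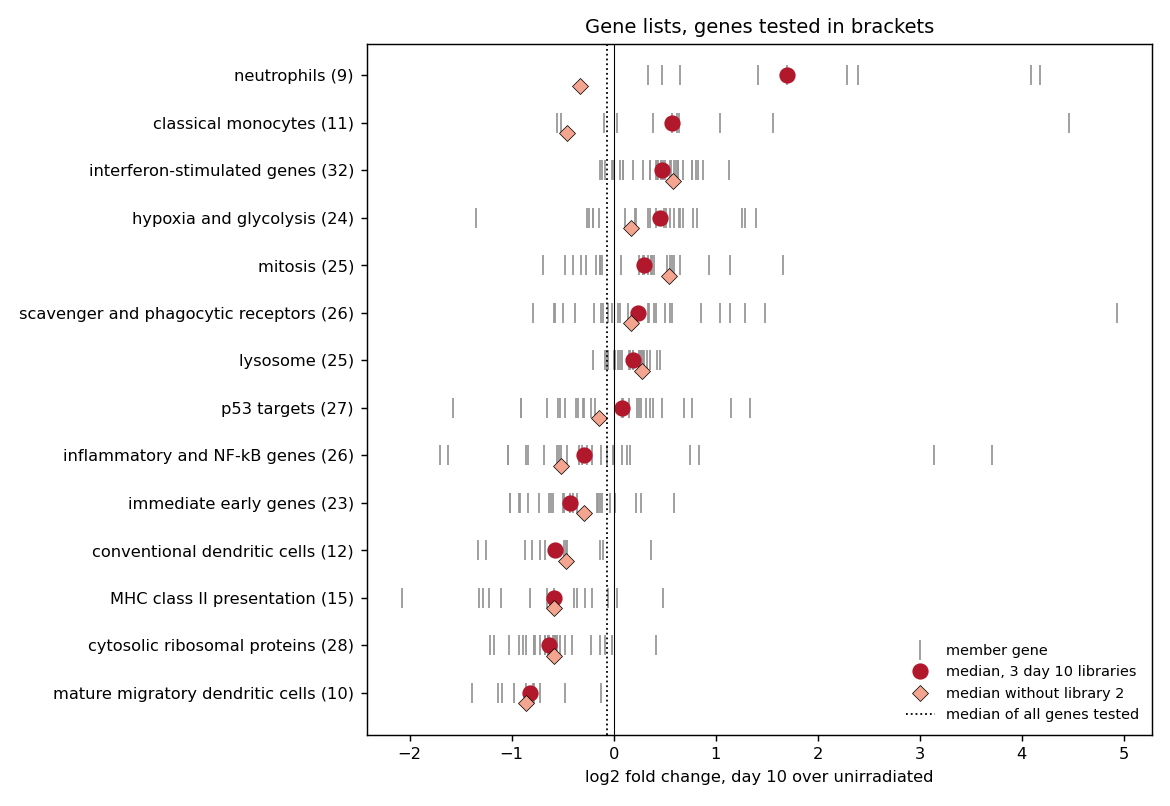
Log2 fold change, day 10 over unirradiated, of the members of 14 gene lists (grey ticks), their median with all 3 day 10 libraries (circles) and without day 10 library 2 (diamonds); the dotted line is the median of all genes tested. The neutrophil, classical monocyte and p53 target medians cross 0 when library 2 is left out, while the interferon, antigen presentation and dendritic cell medians keep their side.

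No target of p53 was called at day 10. Of 30 listed targets 27 were tested, 0 passed edgeR, voom or DESeq2, and none had non-overlapping groups; 3 had an unadjusted p under 0.05 on the higher side (Sesn1, Phlda3 and Ccng1) and 1 on the lower side (Pmaip1). Their median log2 fold change was 0.08, with 14 positive and 13 negative, and it was -0.15 without day 10 library 2 and 0.15 without library 1. Cdkn1a, the cell cycle inhibitor p21 (chr17:29090976-29100727, plus strand), was at 475, 587 and 442 CPM at day 10 and 325 to 916 CPM (median 638 CPM) without irradiation. All 3 values lay within the unirradiated range, and the log2 fold change was -0.37 ± 0.22 (95% interval -0.83 to 0.10). Phlda3, an inhibitor of Akt, was at 2.70, 1.70 and 5.89 CPM at day 10 and 0 to 3.84 CPM (median 1.44 CPM) without irradiation, with 1 of the 3 libraries above the highest unirradiated one (log2 fold change 1.34 ± 0.61). The cyclin gene Ccng1 was at 159, 144 and 215 CPM at day 10 and 70.7 to 154 CPM (median 129.7 CPM) without irradiation (log2 fold change 0.47 ± 0.22), and the sestrin Sesn1 at 182, 116 and 214 CPM at day 10 and 48.7 to 169 CPM without irradiation (log2 fold change 0.77 ± 0.32). Without day 10 library 3 the log2 fold change of Phlda3 was 0.70 and that of Ccng1 was 0.28. The ubiquitin ligase gene Mdm2, which degrades p53, had a log2 fold change of 0.15 ± 0.31, and the apoptosis genes Bax, Bbc3 and Pmaip1 had 0.23 ± 0.17, -0.29 ± 0.40 and -0.91 ± 0.43. The remaining tested targets ranged from -1.57 for Tnfrsf10b, at under 1 CPM at day 10, to 1.15 for Gtse1. Eda2r and Ddit4l were too low to be tested, and 1 listed symbol was not matched in the table.

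Earlier groups after 5 x 2 Gy give the course of these genes, which differed between targets. Ccng1 averaged 125 ± 24.3 CPM without irradiation (SD, n = 10), 242 ± 41.7 CPM at day 3 and 243 ± 49.6 CPM at day 5 (n = 4 each), and 173 ± 37.4 CPM at day 10 (n = 3). At day 3 after 1 x 10 Gy it averaged 286 ± 111 CPM (n = 3). Phlda3 averaged 1.46 ± 1.01 CPM without irradiation and 6.24 ± 1.95, 5.18 ± 2.18 and 3.43 ± 2.19 CPM at days 3, 5 and 10, and 21.2 ± 16.8 CPM at day 3 after 1 x 10 Gy. The direct contrast of day 10 with day 3 gave log2 fold changes of -0.49 ± 0.26 for Ccng1, -0.86 ± 0.76 for Phlda3 and -0.44 ± 0.26 for Cdkn1a. None passed, with adjusted p of 1 by edgeR in each and 95% intervals that include 0 for all 3 genes. The value for Phlda3 was -0.54 without day 10 library 2 and -1.53 without library 3. Sesn1 went the other way, at 100 ± 21.7, 148 ± 28.9 and 171 ± 49.7 CPM at days 3, 5 and 10. Its log2 fold change of day 10 against day 3 was 0.77 ± 0.38. In the same contrast Mdm2 was at -0.001 ± 0.36 and Bax at -0.08 ± 0.21. Against day 5 Cdkn1a was at -0.68 ± 0.26, with an unadjusted p of 0.0151 and an adjusted p of 1 by edgeR. It averaged 502 ± 75.6 CPM at day 10 (SD, n = 3) and 803 ± 182 CPM at day 5 (n = 4).

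The direct comparisons with the earlier times called no gene by edgeR. Against day 3, 0 of 15874 genes (0%) passed, with 206 at an unadjusted p under 0.05, and voom and DESeq2 called 1 each (Serpinh1 and C920009B18Rik). Against day 5, 0 of 15874 genes (0%) passed, with 465 at an unadjusted p under 0.05; voom called 0 and DESeq2 called 3 (Fam111a, Ttr and C920009B18Rik). The gene with the smallest p against day 5 was Fam111a, whose day 10 mean of 26.5 ± 5.30 CPM (n = 3) stood against 124 ± 36.9 CPM at day 5 (n = 4). The log2 fold change was -2.22 ± 0.43 (95% interval -3.10 to -1.34), with an adjusted p of 0.429 by edgeR. Of the genes above the unirradiated range, Msr1 was already at 480.4 ± 153 CPM at day 3 and 658 ± 324 CPM at day 5, beside 585 ± 142 CPM at day 10. Sema4d was at 382 ± 70.3, 347 ± 30.6 and 589 ± 74.0 CPM at days 3, 5 and 10, and Mmp14 at 276 ± 37.1, 225 ± 84.3 and 432 ± 124 CPM. Day 10 against day 5 had a log2 fold change of 0.77 ± 0.23 for Sema4d, 0.87 ± 0.30 for Adar and 0.56 ± 0.16 for Stat2, each with an adjusted p of 1 by edgeR. Other interferon-stimulated genes had smaller values, at 0.46 ± 0.36 for Oas3, 0.23 ± 0.25 for Ddx58 and 0.19 ± 0.23 for Dhx58. Cxcl10, Oasl2, Ifit3 and Isg15 were at 0.06 ± 0.55, 0.01 ± 0.36, -0.04 ± 0.36 and -0.13 ± 0.37. The mean log2 level of the 32 interferon-stimulated genes was 6.93 to 7.45 at day 10 and 6.44 to 7.44 at day 5. The list thus overlapped between these days. Day 3 library 2 differed in sex: the Y-linked gene Ddx3y was at 242 CPM in it and at most 0.112 CPM in the other macrophage libraries.

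**Figure D5:**
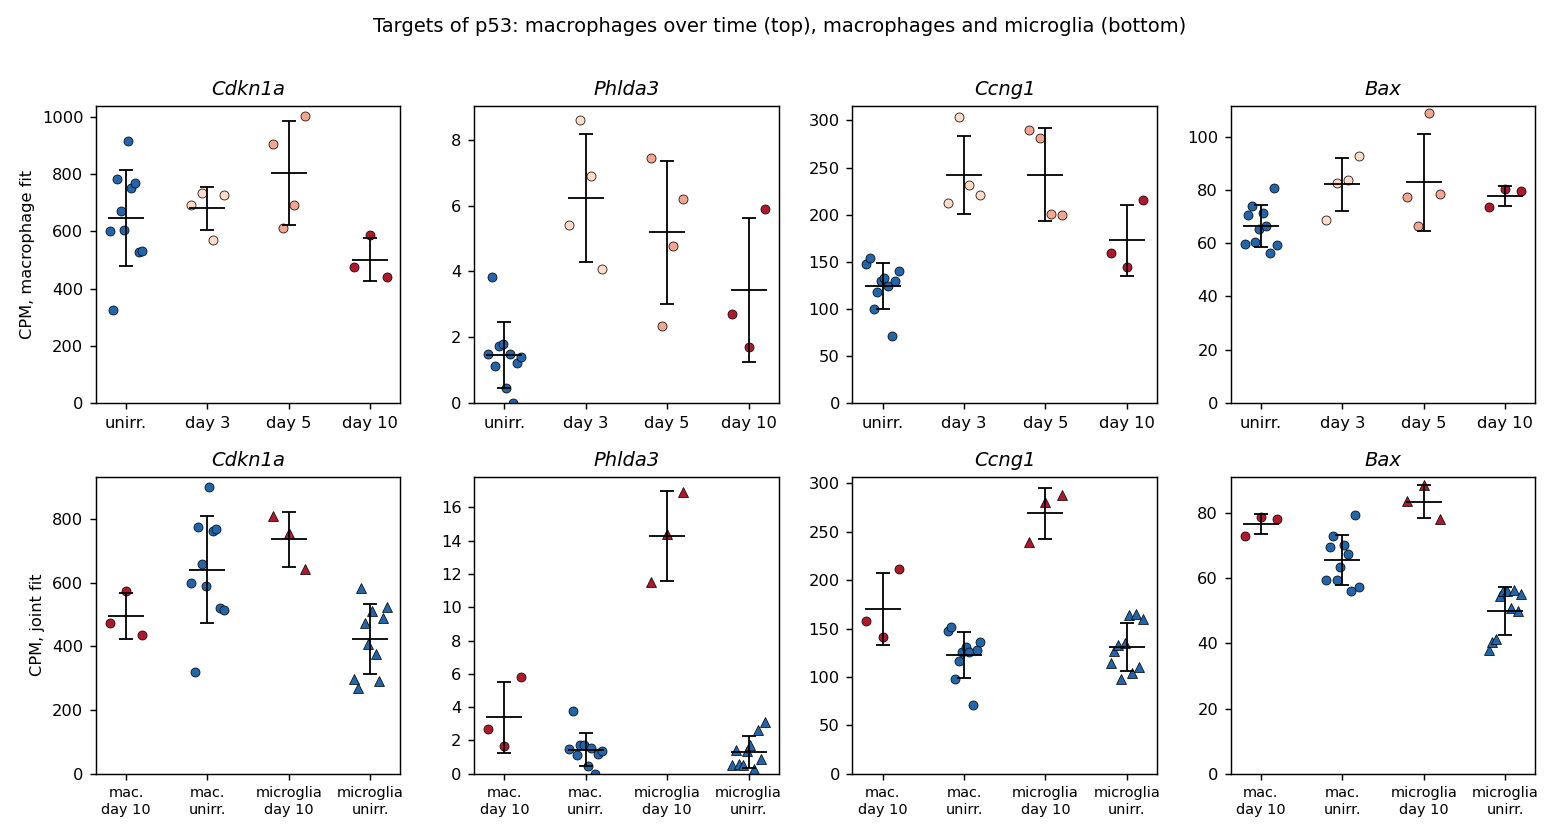
CPM of 4 p53 targets in each library, with means and SD. The top row follows macrophages without irradiation and at days 3, 5 and 10 after 5 x 2 Gy, and the bottom row sets day 10 (red) beside unirradiated (blue) in macrophages (circles) and microglia (triangles); the 3 day 10 microglia points lie above all unirradiated microglia in each of the 4 genes, while the day 10 macrophage points overlap the unirradiated macrophages.

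Whether the difference at day 10 was the same in macrophages as in microglia of the same condition was tested as an interaction, in a fit of both populations. No gene passed: 0 of 19382 genes (0%) reached an adjusted p of 0.05 by edgeR, with 267 at an unadjusted p under 0.05, while voom called 1 (Cdkn1a) and DESeq2 called 1 (Aldh8a1). Within that fit, edgeR called 3 genes (0.0155%) between day 10 and unirradiated microglia, all of them p53 targets, and 0 genes in macrophages. The 3 genes were Phlda3, Ccng1 and Bax. Phlda3 was at 11.5, 14.4 and 16.9 CPM in day 10 microglia libraries 1, 2 and 3, against 0.265 to 3.14 CPM in the 10 unirradiated microglia libraries, and it rose by a log2 fold change of 3.51 ± 0.49 with an adjusted p of 0.000197 by edgeR. Ccng1 and Bax rose in day 10 microglia by 1.04 ± 0.19 and 0.75 ± 0.14, with adjusted p of 0.0148 and 0.0429 by edgeR. The tests of the difference between populations, macrophages minus microglia, gave -2.17 ± 0.80 for Phlda3, -0.57 ± 0.28 for Ccng1 and -0.52 ± 0.21 for Bax, with unadjusted p of 0.00953, 0.0468 and 0.0193 and adjusted p of 1.00 by edgeR in each.

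Cdkn1a had the smallest p of all genes in that interaction. On the scale of the joint fit it was at 472, 575 and 436 CPM in day 10 macrophages and 320.0 to 901 CPM in unirradiated macrophages, and at 809, 757 and 642 CPM in day 10 microglia and 269.9 to 583 CPM in unirradiated microglia. The 3 microglia values lay above the unirradiated microglia, with a log2 fold change of 0.80 ± 0.21 and an adjusted p of 0.352 by edgeR, whereas the macrophage values lay inside their own range. The difference between the populations was -1.17 ± 0.31 (95% interval -1.80 to -0.54), with an unadjusted p of 0.000529, an adjusted p of 1.00 by edgeR and 0.0140 by voom. Leaving out 1 library at a time kept the difference between -1.26 and -1.0, and it was -1.17 in a fit with the condition and replicate number, shared by both populations, as a block. The RNA-editing gene Adar had a log2 fold change of 0.87 ± 0.22 in microglia, and the difference between populations was 0.18 ± 0.32 (95% interval -0.47 to 0.83); for Stat2 these were 0.58 ± 0.13 and -0.10 ± 0.19. Fam111a was at -1.35 ± 0.44 in microglia, with a difference of -0.09 ± 0.57. Zeb2, in contrast, had a log2 fold change of 0.09 ± 0.17 in microglia and a difference of 0.74 ± 0.24, with an unadjusted p of 0.00362 and an adjusted p of 1.00 by edgeR.

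Counting on strands is not stated for this table, so reads of genes that share exons with a gene on the other strand cannot be separated from it. This holds for Zeb2, Adar, Piezo1, Hk1, Adam17, Itgav, Sdc3, Coro1c, Dhx58, Fam111a, Stk11, Crem, H2-Oa, Kif20a, Cdkn1a, Csf1r, Itga4, P2ry12, Cxcl10, Thbs1 and the gene model CT010467.1 among the genes named. Close copies such as Ifit3 and Ifit3b, Fpr2 and Fpr3, and the haemoglobin chains may also have shared reads.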

How the data were processed

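RNA of myeloid cells purified by FACS was sequenced. The deposited table holds raw counts per gene for 49585 genes and 108 libraries; the authors made these counts with FastQC, TopHat2 2.0.14 and HTSeq on GRCm38 and used DESeq2 1.18.1, per the submitters' processing notes. The strand setting and annotation are not stated in these notes. Table columns left unused because no label matched them numbered 0. The 24 macrophage libraries were fitted together with edgeR 4.0.16 (R 4.3.3): TMM scaling, filterByExpr with a minimum count of 10 and a minimum total of 15, a quasi-likelihood F-test and Benjamini-Hochberg adjustment over all genes tested, with a threshold of 0.05. CPM values use TMM-scaled library sizes. The interaction used a joint fit with the microglia libraries. DESeq2 1.42.0 and limma 3.58.1 (voom with sample quality weights) were alternatives, as were no filter, a replicate block and leaving out libraries. Scripts were tested on simulated data. Groups came from the sample titles. The members and gene lists were chosen with earlier results of these data known. The rule for named genes asked for an adjusted p under 0.05 and no overlap, which no gene met, up to 4 members of each list by smallest p, and all p53 targets; other genes named were chosen after their values were seen. Gene coordinates are from GENCODE M21 and promoters from RefSeq. Depth limits the precision of low counts, and fold changes of genes near 0 counts depend on edgeR's prior count.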

Additional observations from a re-analysis of the deposited data

Results flagged for a closer look

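Among 34 genes named above, each examined in 4 groups of 4 or 5 libraries (136 tests), 12 values lay far from the others of their group. This is 8.82% of the tests. The rule marks about 1 in 20 of independent, normally distributed sets. CPM values are skewed and the genes share libraries, so the share cannot be read as an excess over chance. The day 10 group, with 3 libraries, was not examined in this way.

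In unirradiated libraries, small replicate 2 had Adam17 at 112 CPM (others 207 to 241), Phlda3 at 3.84 CPM (others 1.13 to 1.79) and the dendritic cell factor Batf3 at 91.5 CPM (others 31.3 to 46.2). This library also had the fewest detected genes of the unirradiated group. Large replicate 3 had C3 at 125 CPM (others 78.9 to 89.6) and Ccng1 at 70.7 CPM (others 124 to 141), so it set the upper end of the unirradiated range for C3.

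At day 3 after 5 x 2 Gy, replicate 1 had Msr1 at 252 CPM (others 537 to 583) and Klf4 at 80.5 CPM (others 58.1 to 59.5), and replicate 4 had Vcan at 36.2 CPM (others 1.13 to 1.91) and Arg1 at 896 CPM (others 20.9 to 126). At day 5, replicate 1 had Klf4 at 218 CPM (others 56.9 to 83.9), replicate 3 had Arg1 at 770.0 CPM (others 0.383 to 109), and replicate 4 had Pcna at 150.2 CPM (others 64.2 to 78.2). Replicate 4 of both days is among the 4 libraries with a high share of ribosomal protein counts; the part of this in these values was not tested.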

How the results depend on the processing

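EdgeR's count of 0 genes at day 10 against unirradiated was 14 with no filter on low counts, 6 with DESeq2 and 270 with voom. Among alternatives chosen after seeing the data, voom called 752 without the 4 libraries that stand apart and 41 without day 10 library 2, DESeq2 called 4 without day 10 library 2, and edgeR called 0 without the 4 libraries. Leaving out each of the 13 libraries in turn gave 0 to 1 genes by edgeR; the 1 gene was Lcn2, without day 10 library 1 and without library 3. Its log2 fold change ranged from -0.19 to 5.81 over these settings. Lcn2 reversed to -0.19 without day 10 library 2, and to -0.25 by DESeq2 without it. Against day 3, no filter, DESeq2 and voom gave 1 gene each, and against day 5 no filter gave 1 and DESeq2 gave 3; leaving out a library gave 0 to 0 in both. For the difference from microglia, DESeq2 and voom gave 1 each, and leaving out a library gave 0. With the replicate block 0 genes passed in each of the 4 comparisons. Deviations of day 10 and unirradiated libraries of the same number correlated at -0.12 to 0.34, with 1 of 6 over 0.1, and those of macrophages and microglia at -0.37 to 0.67, with 18 of 24 over 0.1; at day 10 the 3 macrophage and microglia pairs were at 0.29, 0.45 and 0.35. The other 6 of the 24 pairs did not exceed 0.1 and no label ties equal numbers to a mouse, so the interaction is given from the fit without the block, and with it the differences of Cdkn1a and Phlda3 were -1.17 and -2.36. Of the list medians, those of neutrophils, classical monocytes, p53 targets and hypoxia and glycolysis moved by more than the spread between replicates in 10 settings in all. The cause of the differences between tools was not tested. With 3 day 10 libraries and no label for mouse or batch, differences smaller than the intervals given could not be seen, and stage, batch and irradiation cannot be told apart where the labels are silent.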
